A study of Mus musculus with 8 samples.

Results

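The 49 genes described here encode the machinery that separates chromosomes: kinetochore and centromere proteins, the chromosomal passenger complex, the spindle checkpoint, mitotic kinases, kinesins, spindle assembly factors, cytokinesis factors and proteins that shape mitotic chromosomes. They were chosen by name, by a rule that uses no measured value although earlier results of these data were known, and each of the 49 symbols matched 1 of the 27998 genes measured. They were followed in 8 single-cell RNA-seq libraries of microglia, the macrophages that reside in brain and spinal cord, sorted by YFP fluorescence from the lumbar spinal cord of C57BL/6 mice. All animals carried 1 Cx3cr1 allele with YFP and a tamoxifen-inducible Cre recombinase. The 4 control libraries (genotype Cx3cr1-yfp-creER/+) were from naive animals and from animals 1, 2 and 3 days after both sciatic nerves were cut. The 4 A20 cKO libraries (Cx3cr1-yfp-creER/+; Tnfaip3 fl/fl) covered the same time points, and their conditional knockout targets Tnfaip3, which encodes A20, an inhibitor of NF-κB signalling. The Cre is expressed in every cell that uses the Cx3cr1 promoter, so its action is not limited to microglia. Cords of several animals were pooled in a library and each group had 1 library, so there is no replicate, no difference was tested, and the spread between animals is unknown.

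Levels are given as CPM, the unique molecular identifiers (UMIs, each tagging 1 captured RNA molecule) of a gene in the kept cells of a library per 1000000 UMIs of all genes there. Where 4 values are given for a genotype, they run from naive to day 1, day 2 and day 3. Differences are log2 ratios of these levels with 0.5 UMIs added. Values in parentheses after a level, a ratio or a share are 95% intervals (exact Poisson, exact conditional and Clopper-Pearson), which cover counting error only. Because the chemistry tags the 3′ end of each RNA, levels are compared between libraries for 1 gene and not between genes. A library sum cannot separate more cells that use a gene from more RNA of the gene per cell, so counts of cells are given separately.

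In mitosis, duplicated chromosomes are compacted by condensins, attached to spindle microtubules through kinetochores assembled on centromeres, and held back from separation by the spindle checkpoint until every kinetochore is attached. The anaphase-promoting complex then marks securin and cyclin B for destruction, after which the central spindle and a contractile ring divide the cell. RNAs of many of these genes accumulate from S phase to mitosis and are low in resting cells, and adult microglia divide rarely until injury stimulates them.

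Promoter stretches, the 250 bases upstream of the RefSeq transcription start shortened where the GENCODE M21 gene begins farther upstream, are shown for 5 members, 4 whose RNA was low in naive control cells and high on day 2 (Mki67, Top2a, Ube2c, Cdk1), and 1 member with neither motif (Birc5). Capitals mark the letters TTTGAA or TTCGAA, known as the cell cycle genes homology region, and CCAAT, on either strand, so that TTCAAA and ATTGG are marked too. Sequences are from RefSeq on GRCm38.p6, read 5′ to 3′ along the strand of the gene, and a matched end base can belong to both motifs.
Mki67 (chr7:135716380-135716629, minus strand): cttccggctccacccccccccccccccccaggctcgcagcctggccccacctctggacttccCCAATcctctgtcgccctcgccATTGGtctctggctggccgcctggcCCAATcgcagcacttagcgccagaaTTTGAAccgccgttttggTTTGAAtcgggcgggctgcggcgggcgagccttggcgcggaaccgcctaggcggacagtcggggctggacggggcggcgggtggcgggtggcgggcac
Top2a (chr11:99024190-99024439, minus strand): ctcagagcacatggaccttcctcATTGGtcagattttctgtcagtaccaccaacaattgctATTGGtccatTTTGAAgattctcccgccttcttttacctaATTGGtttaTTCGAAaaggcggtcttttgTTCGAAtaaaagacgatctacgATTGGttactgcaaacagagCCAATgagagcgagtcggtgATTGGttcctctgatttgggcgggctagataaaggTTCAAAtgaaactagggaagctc
Ube2c (chr2:164769679-164769897, plus strand): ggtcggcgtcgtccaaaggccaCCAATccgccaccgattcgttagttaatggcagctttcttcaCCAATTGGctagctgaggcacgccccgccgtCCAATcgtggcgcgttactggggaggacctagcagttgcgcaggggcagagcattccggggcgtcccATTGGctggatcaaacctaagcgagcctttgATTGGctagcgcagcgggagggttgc
Cdk1 (chr10:69352939-69353162, minus strand): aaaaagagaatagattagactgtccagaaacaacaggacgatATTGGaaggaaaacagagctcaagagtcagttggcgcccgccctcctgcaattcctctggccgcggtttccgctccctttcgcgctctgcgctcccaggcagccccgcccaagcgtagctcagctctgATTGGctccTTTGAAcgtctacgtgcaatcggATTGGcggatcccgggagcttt
Birc5 (chr11:117848987-117849236, plus strand): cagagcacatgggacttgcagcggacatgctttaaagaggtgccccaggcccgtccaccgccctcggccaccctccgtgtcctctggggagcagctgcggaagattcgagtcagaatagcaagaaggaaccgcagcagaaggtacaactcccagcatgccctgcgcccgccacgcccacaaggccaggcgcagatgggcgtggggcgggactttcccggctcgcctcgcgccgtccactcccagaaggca

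In GENCODE M21 on GRCm38 these genes were annotated as Mki67 (ENSMUSG00000031004) on chromosome 7 from 135689784 to 135716361, Top2a (ENSMUSG00000020914) on chromosome 11 from 98992943 to 99024189, Ube2c (ENSMUSG00000001403) on chromosome 2 from 164769898 to 164778822, Cdk1 (ENSMUSG00000019942) on chromosome 10 from 69335146 to 69352938 and Birc5 (ENSMUSG00000017716) on chromosome 11 from 117849251 to 117855743.

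Promoter windows of 300 bases, 250 before and 50 after the start, were listed for 42 of the 49 members, and Tpx2, Aurkb, Kif20a, Cdca2, Smc4, Incenp and Dlgap5 were not matched. TTTGAA or TTCGAA stood in a window of 34 of the 42 genes (80.95%), against 21.7% of the 27025 genes listed. CCAAT stood in 31 of 42 (73.8%), against 41.1% of all. Both together stood in 29 members (69.05%), against 8.61% of all genes, 38.9% of a list of other mitotic genes and 18.4% of a list of DNA replication genes. Bub3, whose level varied little between libraries, had matches to both in its window, and Birc5, at one of the widest ratios, had none. A match describes letters in a window and does not show that a protein binds there.

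Libraries held 579 to 3585 barcodes and 1648400 to 15817426 UMIs, and 14626 of 14883 barcodes were kept as cells, with median depths of 2780 to 4274 UMIs per cell. The libraries fall into 2 sets that follow the genotype except for control day 3. The 4 libraries of A20 cKO shared barcodes with each other and with control day 3 at 13.2 per 1000000 pairs of cells, and these 5 are called the linked libraries. The rate was 1.67 among control naive, day 1 and day 2, and 1.77 between the sets. Single pairs of libraries ran from 5.41 to 67.6 in the linked set and from 0.797 to 8.83 between the sets, which overlap. RNA of other cell types differed with the sets as well. All 5 choroid plexus and ependyma markers together (Ttr, Folr1, Kl, Foxj1, Ccdc153) were at 0 to 0.285 CPM in control naive, day 1 and day 2, with 0, 3 and 1 of them detected, and at 127 to 401 CPM in the linked libraries, with 3 to 5 detected. Cells with Mbp, an oligodendrocyte gene, made up 5.42% to 6.53% of the first set and 18.5% to 41.5% of the linked libraries. The 5 neutrophil markers together were at 0 to 0.142 CPM in control naive, day 1 and day 2, with at most 1 of 5 detected, and at 30.3 to 54.8 CPM in the linked libraries, with all 5 detected. In comparisons across the sets, which are control day 3 against control naive or day 2 and the naive and day 2 genotype comparisons, the condition cannot be told apart from the set. Tnfaip3 itself was at 24.1, 25.3, 6.83 and 20.3 CPM in the control libraries and 47.4, 42.3, 52.4 and 67.7 CPM in the A20 cKO libraries, in order of time, and its 3′ tag need not lie in the floxed part, so these levels do not check the deletion.

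The 49 genes together were low in control naive and day 1 and high on days 2 and 3. The control sums, in order of time, were 257 (233 to 283), 291 (282 to 300.3), 2055 (2032 to 2077) and 1674 (1644 to 1704) CPM. The A20 cKO sums were 773 (755 to 791), 915 (882 to 950.0), 2713 (2654 to 2772) and 1518 (1471 to 1567) CPM. A20 cKO day 2 held the highest level of 38 members, control day 2 of 10, and A20 cKO day 3 of 1, Ckap2, which encodes a microtubule-associated protein. The lowest level lay in control naive for 23 members, in control day 1 for 25, and in A20 cKO naive for Bub3. In control, 48 members were higher in both day 2 and day 3 than in both naive and day 1, and in A20 cKO all 49 were. Bub3 alone among these 49 broke the control pattern. No share of all genes was computed for these orders, so the counts describe the 49 only. Many of the lowest levels in control naive rest on few UMIs, as 1 UMI there is 0.617 CPM. Markers of other cells rose with the members in some libraries only, and monocyte markers stayed low on control day 2. The 5 monocyte markers together were at 3.70, 2.63, 4.30 and 30.3 CPM in the control libraries and 37.3, 36.3, 97.9 and 64.5 CPM in the A20 cKO libraries, with 2 to 4 of 5 detected in control naive, day 1 and day 2 and 4 or 5 in the others, and were highest on A20 cKO day 2. The microglia markers Tmem119, Csf1r, P2ry12, Cx3cr1, Fcrls, Siglech and Sall1, all 7 detected in every library, were together at 14062, 12447, 11024 and 9596 CPM in the control libraries and 9677, 7642, 5533 and 5558 CPM in the A20 cKO libraries, lowest on A20 cKO day 2. Their part in the member levels was not tested.

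**Figure D1:**
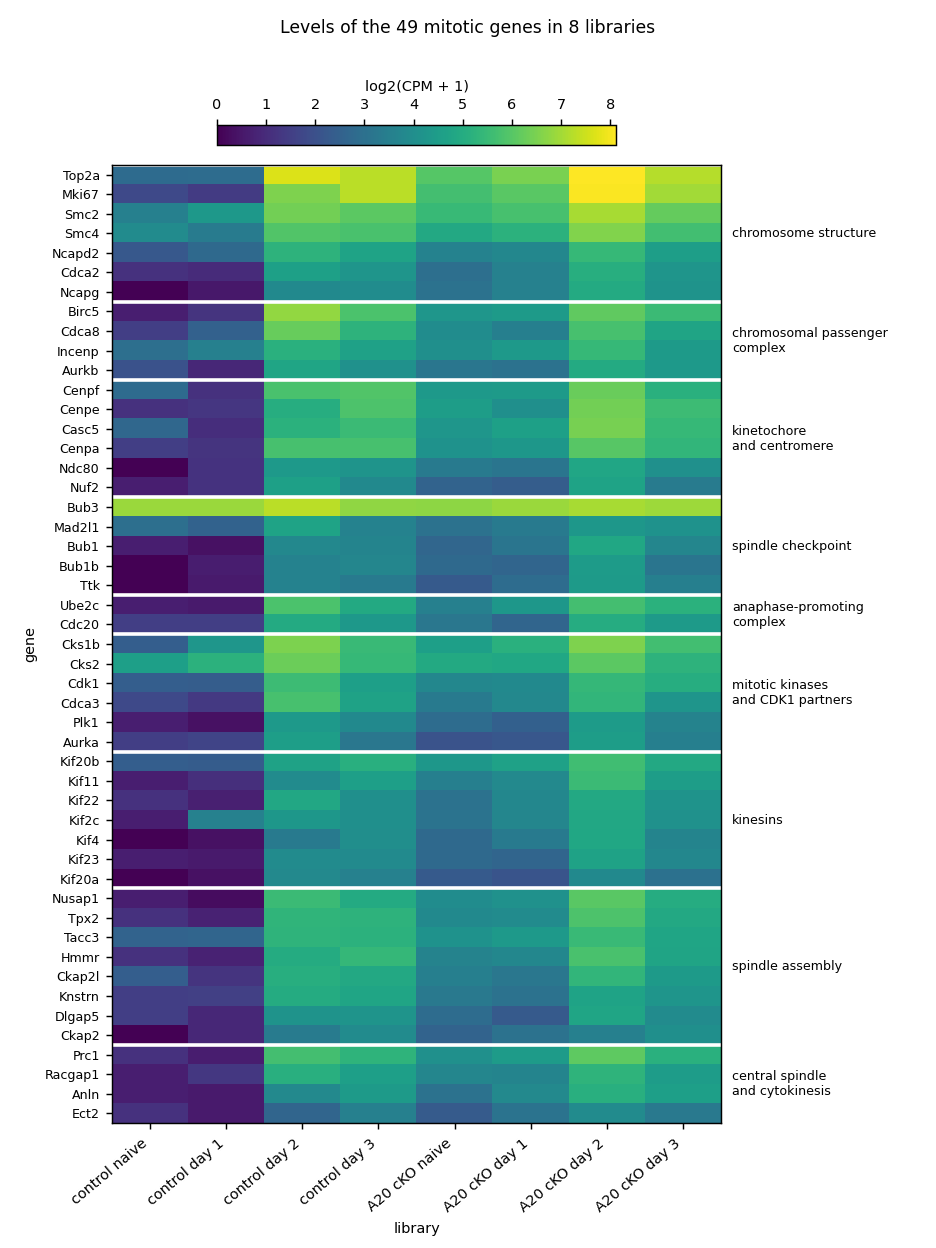
Level of each of the 49 genes (rows, grouped by role) in each of the 8 libraries (columns), as log2 of CPM plus 1 from dark (low) to yellow (high), with no replicates. Control day 2, control day 3 and A20 cKO day 2 and day 3 are lighter than control naive and day 1 in nearly every row, A20 cKO naive and day 1 are intermediate, and the Bub3 row is even, between 107 and 154 CPM.

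Chromosome structure was followed through 7 members. Top2a, the topoisomerase that untangles sister DNA, was at 6.17, 6.33, 206 and 156 CPM across the control time points and 61.8, 89.2, 277 and 147 CPM across those of A20 cKO. Mki67, which encodes the Ki-67 coat of mitotic chromosomes, was at 2.47, 1.64, 92.2 and 154 CPM in the control libraries and 51.1, 64.7, 269 and 125 CPM in the A20 cKO libraries. These genes shared low control naive and day 1 levels but differed in which later library stood highest among controls. The log2 ratio of control day 3 to day 2 was −0.40 (−0.5 to −0.30) for Top2a and 0.74 (0.62 to 0.85) for Mki67. Between genotypes on day 2, Mki67 was higher in A20 cKO by 1.55 (1.42 to 1.67) and Top2a by 0.43 (0.32 to 0.54). On day 3, within the linked libraries, both ratios of A20 cKO to control lay below 0, at −0.30 (−0.48 to −0.12) for Mki67 and −0.08 (−0.26 to 0.09) for Top2a. The condensin subunits Smc2, Smc4, Ncapd2 and Ncapg, which compact chromosomes, and Cdca2, which recruits a phosphatase to chromatin, were 2-fold or more above control naive on control day 2. Of these 5, Smc2 and Smc4 were detected in naive control cells at 10.5 CPM (6.11 to 16.8) and 14.2 CPM (8.997 to 21.3), and Ncapg had none of the 1620481 UMIs there, which allows up to 1.85 CPM.

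The chromosomal passenger complex corrects faulty attachments and guides cytokinesis, and its 4 genes were together at 12.3, 17.6, 245 and 133 CPM in the control libraries and 56.2, 58.1, 195 and 112 CPM in the A20 cKO libraries, in order of time. Birc5, which encodes survivin, was at 0.617, 1.35, 110.4 and 55.7 CPM across the control time points and 18.3, 20.5, 68.9 and 45.6 CPM across those of A20 cKO. Cdca8, which encodes borealin, was at 1.85, 4.77, 73.4 and 36.8 CPM in the control libraries and 14.5, 10.2, 53.4 and 25.97 CPM in the A20 cKO libraries. Aurkb, the kinase of the complex, was at 3.09, 0.854, 26.3 and 16.1 CPM in the control libraries and 8.07, 7.26, 30.3 and 19.7 CPM in the A20 cKO libraries. Control day 2 was the highest of all 8 libraries for Birc5 and Cdca8 and A20 cKO day 2 for Aurkb and Incenp, the scaffold of the complex. Birc5 had the lowest log2 ratio of A20 cKO day 2 to control day 2 among the 49, at −0.68 (−0.89 to −0.47), and that of Aurkb was 0.21 (−0.14 to 0.53). Incenp had 6.79 CPM (3.39 to 12.1) in control naive and 34.8 CPM (31.9 to 37.8) on control day 2.

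Kinetochore and centromere members (Cenpa, Cenpe, Cenpf, Ndc80, Nuf2, Casc5) were together at 15.4, 7.61, 219 and 244 CPM in the control libraries and 89.9, 90.5, 363 and 188 CPM in the A20 cKO libraries. Cenpf, a large protein of the outer kinetochore, was at 6.17, 1.21, 54.1 and 58.7 CPM in the control libraries and 19.4, 20.5, 76.1 and 34.6 CPM in the A20 cKO libraries. Cenpe, a kinesin that moves chromosomes to the spindle equator, was at 1.23, 1.42, 32.6 and 56.95 CPM across the control time points and 21.8, 15.5, 83.7 and 46.8 CPM across those of A20 cKO. The log2 ratio of control day 3 to day 2 included 0 within its interval for Cenpf, at 0.12 (−0.05 to 0.29), and was 0.80 (0.61 to 0.99) for Cenpe. Cenpe and Casc5, the scaffold also called Knl1, were more than 2-fold higher in A20 cKO day 2 than in control day 2, by 1.36 (1.14 to 1.58) and 1.29 (1.07 to 1.5). Cenpa, the histone H3 variant of centromeres, differed little there, at 0.26 (0.03 to 0.49). Ndc80 and Nuf2 form the microtubule-binding rod of the kinetochore. Ndc80 had no UMI in control naive and was at least 10.8-fold higher on control day 2 and at least 4.84-fold higher in A20 cKO naive, set against the 1.85 CPM that 3 UMIs would give in control naive.

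Spindle checkpoint members divided into Bub3 and the rest. Bub3, a WD-repeat protein that carries Bub1 and BubR1 to kinetochores, was at 118, 118, 154 and 109 CPM across the control time points and 107, 117, 133 and 120.0 CPM across those of A20 cKO. Its whole range was 107 to 154 CPM, and its log2 ratios against the naive library of the same genotype lay between −0.11 and 0.38. Mad2l1, which encodes the checkpoint protein MAD2, was at 6.79, 4.84, 25.04 and 11.3 CPM in the control libraries and 7.40, 8.92, 18.8 and 16.5 CPM in the A20 cKO libraries. Mad2l1 was highest on control day 2, and its log2 ratio of control day 3 to day 2 was −1.15 (−1.51 to −0.81). Its ratio of A20 cKO day 3 to control day 3 was the highest of the 49, at 0.56 (−0.02 to 1.11), with 0 inside the interval. Bub1, Bub1b (BubR1) and the kinase Ttk (MPS1) were at 0 to 0.617 CPM in control naive and day 1 and reached 11 to 12.9 CPM on control day 2. In A20 cKO day 2 the same 3 genes were at 20.4 to 27.7 CPM, with log2 ratios to control day 2 of 1.11 for Bub1, 0.92 for Bub1b and 0.89 for Ttk.

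Of the anaphase-promoting complex, Cdc20, its activator, was at 1.85, 1.85, 30.4 and 19.2 CPM across the control time points and 8.41, 5.28, 31.97 and 20.5 CPM across those of A20 cKO. Ube2c, the ubiquitin-conjugating enzyme that works with it, was at 0.617, 0.498, 55.8 and 29.5 CPM in the control libraries and 10.5, 18.5, 50.8 and 35.02 CPM in the A20 cKO libraries. Ube2c was the member with the highest ratio of A20 cKO day 3 to A20 cKO naive, at 1.73 (1.30 to 2.17) on the log2 scale. Neither gene differed between A20 cKO and control by a ratio whose interval left 0 on day 2, at 0.08 (−0.26 to 0.39) for Cdc20 and −0.13 (−0.39 to 0.11) for Ube2c.

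Among mitotic kinases and partners of CDK1, Cdk1, the kinase that drives entry into mitosis, was at 4.32, 4.27, 46.1 and 23.1 CPM in the control libraries and 12.6, 13.5, 41.2 and 32.7 CPM in the A20 cKO libraries. Cks1b and Cks2 encode small subunits that bind CDK1, and Cks1b has a retrotransposed copy in the mouse genome, so its counts are less certain where reads match both. Cks1b was at 4.32, 18.3, 90.2 and 44.2 CPM across the control time points and 22.9, 35, 91.96 and 49.97 CPM across those of A20 cKO. Cks2 was at 22.8, 36.1, 77.8 and 42.8 CPM in the control libraries and 29.3, 27.7, 66.6 and 37.4 CPM in the A20 cKO libraries. Cks1b was already higher on control day 1, by 1.98 (1.02 to 3.41) on the log2 scale, and Cks2 was at 0.64 (0.18 to 1.18). Plk1, a kinase of spindle poles and kinetochores, was at 0.617, 0.285, 19.3 and 13.6 CPM in the control libraries and 6.28, 4.62, 21.1 and 11.4 CPM in the A20 cKO libraries. On control day 3 the 6 genes of this group were together at 157 CPM against 309 CPM on day 2. Aurka, Cdca3 and Cks1b were 3 of the 4 members that were 2-fold or more lower on control day 3 than on day 2, at −1.40, −1.12 and −1.03. Cdca3 encodes a factor that triggers entry into mitosis. Aurka, a kinase of spindle poles, also had the highest ratio of A20 cKO day 2 to A20 cKO naive, at 2.75 (2.12 to 3.45).

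Kinesins, the motors that slide and depolymerise microtubules, were together at 7.41, 17.7, 121 and 127 CPM in the control libraries and 59.3, 79.6, 217 and 116 CPM in the A20 cKO libraries. Kif11, which pushes spindle poles apart, was at 0.617, 1.14, 14.04 and 22.8 CPM across the control time points and 10.4, 13.2, 45.5 and 22.04 CPM across those of A20 cKO. Kif20b, a kinesin of late mitosis, was at 4.32, 4.13, 24.7 and 33.5 CPM in the control libraries and 18.5, 24.1, 48.8 and 29.1 CPM in the A20 cKO libraries. Kif11 was higher in A20 cKO day 2 than in control day 2 by 1.70 (1.38 to 2.01) on the log2 scale, the highest ratio of the 49 in that comparison. Kif4, a chromosome-bound kinesin, followed at 1.60 (1.19 to 2.0), and the other 5 kinesins lay between 0.06 and 0.99. Kif2c, which depolymerises microtubules at centromeres, had 1 UMI in control naive (0.617 CPM) and 10.7 CPM (9.10 to 12.6) on control day 1, with a log2 ratio of 3.54 (1.62 to 9.43).

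The 8 spindle assembly members were together at 16.05, 11.9, 243 and 231 CPM in the control libraries and 86.2, 89.2, 321 and 181 CPM in the A20 cKO libraries. Tpx2, which activates Aurora A and nucleates microtubules, was at 1.23, 0.711, 38.8 and 37.1 CPM in the control libraries and 13.3, 14.2, 56.7 and 29.1 CPM in the A20 cKO libraries. Nusap1, which bundles microtubules near chromosomes, was at 0.617, 0.213, 44.9 and 29.9 CPM across the control time points and 14.5, 16.2, 64.6 and 31.5 CPM across those of A20 cKO. Hmmr, a spindle pole protein, was the member with the lowest ratio of A20 cKO naive to control day 3, at −1.87 (−2.22 to −1.55) on the log2 scale, and all 8 of the group were 2-fold or more lower in that comparison. Dlgap5, which stabilises kinetochore fibres, had the lowest ratio of A20 cKO day 1 to naive, at −0.64 (−1.72 to 0.22).

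Cytokinesis was represented by 4 members. Prc1, which bundles the microtubules of the central spindle, was at 1.23, 0.569, 51.2 and 38.3 CPM in the control libraries and 16.03, 21.1, 67.9 and 34.6 CPM in the A20 cKO libraries. Racgap1, a subunit of centralspindlin, was at 0.617, 1.49, 33.8 and 23.1 CPM across the control time points and 12.1, 11.6, 37.9 and 21.2 CPM across those of A20 cKO. Both differed by less than 2-fold between A20 cKO day 2 and control day 2, with log2 ratios of 0.41 (0.18 to 0.63) and 0.17 (−0.14 to 0.46). Anln, an actin-binding protein of the contractile ring, and Ect2, the exchange factor that activates RhoA there, were higher in A20 cKO day 2, by 1.36 (1.0 to 1.71) and 1.42 (0.85 to 1.96). Ect2 also had the highest ratio of control day 3 to day 2 among the 49, at 0.99 (0.53 to 1.46).

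The number of members past a 2-fold difference was set beside the same share over all genes, for genes with at least 50 UMIs in both libraries together. At 1 day after injury the control library had few such members. Only 14 of the 49 reached 50 UMIs, since control naive was the smallest library. Of them, 3 were 2-fold higher, Kif2c, Cks1b and Cdca8, where 4.35% of all tested genes were. These 3 had 1, 7 and 3 UMIs in control naive, so they reached 50 UMIs only through day 1, where they were high. Their count is thus partly set by the minimum and is not read as an excess over that share. None of the 14 was 2-fold lower, where 9.48% of all tested genes were. With 1 UMI added in place of 0.5, Cdca8 was no longer 2-fold higher. Cdca8 was at 1.15 (−0.24 to 3.68), with 0 inside the interval, and Smc4 had the lowest ratio, −0.61 (−1.23 to 0.12). The sum of the 49 differed from control naive by 0.18 (0.03 to 0.33) on the log2 scale. On day 2, 48 of 49 were 2-fold or more higher than in control naive, where 6.4% of all tested genes were, and Bub3 was the exception at 0.38 (0.17 to 0.60). Every member but Bub3 had at most 37 UMIs in control naive, so each reached 50 UMIs only through day 2. No member was left out by the minimum, and with no minimum 6.61% of all genes were 2-fold higher. The sum was higher by 3.0 (2.86 to 3.14). The median over the 49 was 4.18, or 3.80 with the 7 members that had no UMI in control naive set to their lower bounds, against −0.13 over all genes. Birc5 had the highest ratio, 6.90 (5.0 to 12.79), on 1 UMI in control naive. Neither comparison crossed the sets of libraries, and both used the same control naive library.

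Control day 3 lay on the other side of the divide between library sets. There 46 of 49 members were 2-fold or more higher than in control naive, where 9.73% of all tested genes were. The exceptions were Bub3 (−0.11), Mad2l1 (0.67) and Cks2 (0.89), and Birc5 again had the highest ratio, 5.91 (4.01 to 11.80). The median was 3.85, or 3.18 with bounds, against 0.06 over all genes. Against control day 2, control day 3 had 0 members 2-fold higher, where 14.2% of all genes were, and 4 members 2-fold lower, Aurka, Mad2l1, Cdca3 and Cks1b, where 2.96% were. Scaled by median-of-ratios size factors, 11 were 2-fold lower, but that scaling shifts all genes alike and no share of all genes is given under it. The sum was lower on day 3, at −0.30 (−0.33 to −0.27), while the median of all genes in this comparison was 0.16. Day 3 was the higher of both for 14 of the 49 members, among them Mki67, Cenpe, Kif11 and Kif20b, and for 6344 of all 10760 tested genes.

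Within the A20 cKO libraries, which all belong to the linked set and shared the A20 cKO naive library as reference, day 1 had 0 of 49 members past 2-fold in either direction, with 47 reaching 50 UMIs, where 2.24% of genes were 2-fold higher and 1.93% lower. Ect2 had the highest ratio, 0.92 (0.09 to 1.71). The sum was 0.24 (0.18 to 0.31) on the log2 scale, but this rested on cells whose barcode also occurred in another library. Before cells were filtered, A20 cKO day 1 shared 44 barcodes with A20 cKO day 2. The 62 kept cells of A20 cKO day 1 with a shared barcode held 34.2% of its member UMIs, at 3108 CPM against 669.8 CPM in its other cells. Without them the sum turned to −0.21 and 5 members became 2-fold lower, Cdc20 (−1.43), Hmmr (−1.11), Cenpe (−1.08), Knstrn (−1.07) and Cenpf (−1.03). No share of all genes is given for this setting. In the other 7 libraries such cells held 1.09% to 2.14% of the member UMIs. On day 2, 48 of 49 members were 2-fold or more higher than in A20 cKO naive, where 3.77% of genes were, and Bub3 (0.31) was not. The sum was higher by 1.81 (1.77 to 1.86) and the median was 1.94, against −0.07 over all genes. On day 3, 33 of 49 members were 2-fold higher, where 2.71% of genes were, with a sum of 0.97 (0.92 to 1.03) and Bub3 the lowest at 0.17.

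Between genotypes, the naive libraries were compared first. A20 cKO naive had 38 members 2-fold or more above control naive, where 8.56% of tested genes were, with 42 of 49 reaching 50 UMIs. All of these but Bub3 reached 50 UMIs only through A20 cKO naive. The count is thus partly set by the minimum and is not read as an excess over that share. The 4 that did not differ by 2-fold were Bub3 (−0.14), Mad2l1 (0.07), Cks2 (0.34) and Smc4 (0.99), and Aurka, Kif20a, Ckap2, Bub1, Nuf2, Ttk and Ect2 had too few UMIs. Ndc80, at 0 UMIs in control naive, had the highest fitted ratio. The sum was higher by 1.58 (1.44 to 1.73), and this comparison crossed the sets. Against control day 3, a linked library from injured animals, A20 cKO naive had 36 of 49 members 2-fold or more lower, where 2.16% of genes were, with a sum of −1.11 (−1.16 to −1.07). All 49 were lower, from −1.87 (Hmmr) to −0.03 (Bub3), while 4979 of all 10512 tested genes were above 0. No naive control library belonged to the linked set, so the genotypes could not be compared in naive animals within it.

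On day 2, across the sets, 9 of 49 members were 2-fold or more higher in A20 cKO than in control, where 11.9% of all genes were. In descending order these were Kif11, Kif4, Mki67, Ect2, Cenpe, Anln, Casc5, Ncapg and Bub1, from 1.70 to 1.11 on the log2 scale. None was 2-fold lower, where 5.22% of all genes were, and the sum was 0.40 (0.37 to 0.44). On day 3, within the linked libraries, 0 of 49 members passed 2-fold in either direction, where 2.29% of genes were 2-fold higher and 3.45% lower. Ratios there ran from −0.76 (−1.11 to −0.43) for Cenpf to 0.56 (−0.02 to 1.11) for Mad2l1. Of the 49, 17 members were above 0, where 3657 of all 9863 tested genes were. The sum was −0.14 (−0.19 to −0.09) while the median of all genes was −0.11. Scaled by median-of-ratios size factors, this sum was −0.025, so no direction is given for it.

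**Figure D2:**
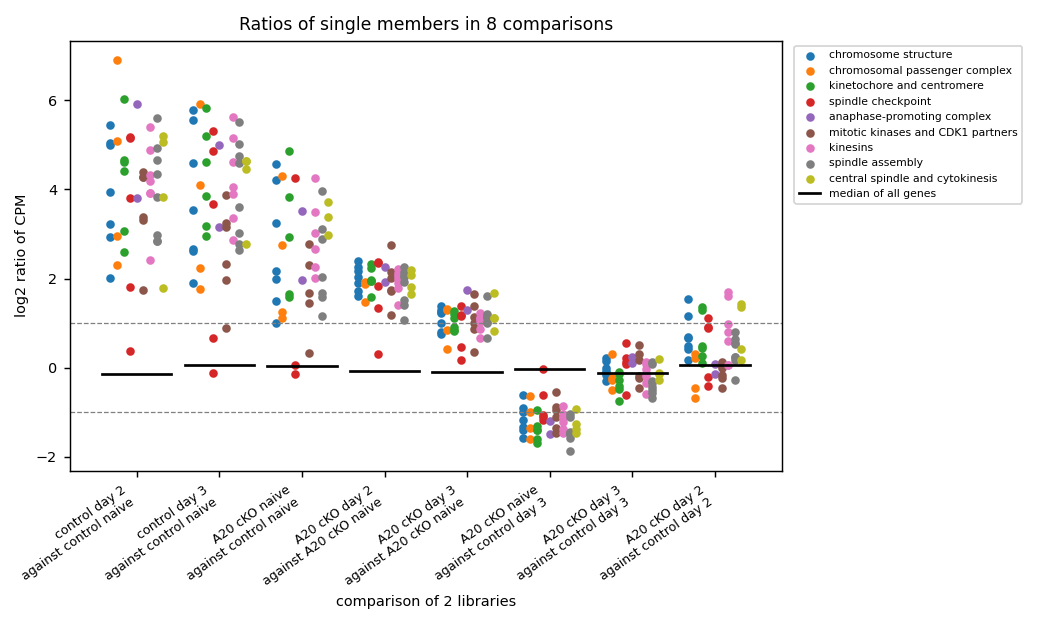
Log2 ratio of CPM in 8 comparisons of 2 libraries each, 1 point per member with at least 50 UMIs and coloured by role, with black bars for the median of all genes, dashed lines at 2-fold and no replicates. On day 2 every point but Bub3 lies above the upper dashed line against naive in both genotypes, and points for A20 cKO day 3 against control day 3 lie between −0.76 and 0.56.

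Lists of related genes gave a second measure of the same pathway. Of 90 other mitotic genes, 88 were matched, and all 50 replication genes were. Genes with under 50 UMIs in a comparison were not tested. Counts against control naive, the smallest library, are thus partly set by the minimum and are not read as an excess over the share of all genes. Other mitotic genes were 2-fold higher on control day 2 for 61 of 85 tested, where 6.4% of all tested genes were. In A20 cKO day 2 against A20 cKO naive it was 39 of 71 tested, where 3.77% of all genes were. For A20 cKO naive against control naive it was 18 of 50 tested, where 8.56% of all genes were. On control day 1, 5 of 36 tested were 2-fold higher and 5 lower, where 4.35% and 9.48% of all tested genes were. Replication genes were counted in the same way. On control day 1 they were 2-fold higher for 18 of 38 tested and lower for 1, where 4.35% and 9.48% of all tested genes were, and 12 were below the minimum. The sum of the replication genes, which needs no minimum, was higher by 0.73 (0.64 to 0.82) on the log2 scale. That of the 49 members was higher by 0.18 (0.03 to 0.33). On A20 cKO day 1, 14 of 48 tested replication genes were 2-fold higher than in A20 cKO naive, where 2.24% of all genes were. Cells with a shared barcode, which carried the sum of the members there, were not left out, and their part in this count was not tested. On control day 3 against day 2, 23 of 50 replication genes were 2-fold lower, against 4 of the 49 members and 2.96% of all genes. The sum of the replication genes there was −0.86 (−0.90 to −0.83).

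The 3 genes with the highest mean level in each list were detected in naive control cells as well. Hjurp, the chaperone that loads Cenpa onto centromeres, was at 55.5, 48.7, 174 and 101 CPM in the control libraries and 78.03, 85.9, 124 and 77.5 CPM in the A20 cKO libraries. Pttg1, which encodes securin, was at 67.9, 60.5, 53.9 and 81.2 CPM in the control libraries and 78.9, 73.3, 92.95 and 102 CPM in the A20 cKO libraries. Mis12, a kinetochore linker, was at 38.9, 33.7, 47.4 and 52.1 CPM in the control libraries and 54.04, 52.2, 48.8 and 43.7 CPM in the A20 cKO libraries. Hjurp alone of these 3 was highest on control day 2. Pcna, the sliding clamp of DNA polymerases, was at 23.4, 53.7, 81.1 and 56.4 CPM in the control libraries and 55.6, 57.8, 82.4 and 72.8 CPM in the A20 cKO libraries, and was already higher on control day 1. Rfc2, a clamp loader subunit, was at 88.2, 129, 185 and 84.5 CPM in the control libraries and 93.2, 135, 139.8 and 134 CPM in the A20 cKO libraries. Slbp, which binds histone RNA, was at 115, 138, 226 and 135 CPM in the control libraries and 126, 138, 145 and 110.2 CPM in the A20 cKO libraries.

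Levels in a library can come from few cells with many of these RNAs or from many cells with few. Cells were thinned to 2000 UMIs each by drawing UMIs without replacement, which left out shallower cells and kept 502, 3225, 3480 and 1878 cells of the control and 2612, 830, 626 and 538 of the A20 cKO libraries. Cells with UMIs of at least 5 different members numbered 1 of 502 cells (0.199%, 0.00504 to 1.10) in control naive and 9 of 3225 cells (0.279%, 0.128 to 0.529) a day after injury. Control day 2 had 583 of 3480 cells (16.8%, 15.5 to 18.04) and control day 3 160 of 1878 cells (8.52%, 7.30 to 9.87). A20 cKO naive had 73 of 2612 cells (2.79%, 2.20 to 3.501) and A20 cKO day 1 31 of 830 cells (3.73%, 2.55 to 5.26). A20 cKO day 2 had 85 of 626 cells (13.6%, 10.99 to 16.5) and A20 cKO day 3 45 of 538 cells (8.36%, 6.17 to 11.03). The order of the libraries thus differed from that of the summed levels, with control day 2 above A20 cKO day 2 here and below it there. The difference between A20 cKO and control was −3.17 percentage points (−5.95 to −0.03) on day 2 and −0.155 (−2.61 to 2.74) on day 3 by Newcombe intervals. Without thinning the shares were 42.1% in control day 2 and 21.3% in A20 cKO day 2. With at least 10 members required, they were 6.09% and 9.74%, the reverse order, so the day 2 order depends on where the line is drawn. On A20 cKO day 1, 8 of 52 thinned cells with a shared barcode (15.4%) and 23 of the other 778 (2.96%) were above the line.

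At least 5 members is a range of a count and not a cell type, and cells lay on both sides of the line. Control day 2 had 569 cells with 3 members, 294 with 4, 152 with 5 and 76 with 6, whereas A20 cKO day 2 had 33, 10, 6 and 6, and control day 3 had 85, 35, 16 and 12. Control day 2 thus had a continuous tail, and in the linked libraries most cells above the line were well above it. The median number of members in cells above the line was 8 in control day 2 and 13 to 14 in the 5 linked libraries. In control day 2, 89.1% of thinned cells had at least 1 member, against 35.7% in control naive, 41.1% on day 1 and 44.3% to 67.7% in the linked libraries. Cells with at least 5 members were deeper before thinning, at a median of 5799 UMIs against 3780 for other cells in control day 2, and 6958 against 4029 in A20 cKO day 2. They held 59.2% of all member UMIs in control day 2, and 61.0% to 83.6% in the linked libraries.

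**Figure D3:**
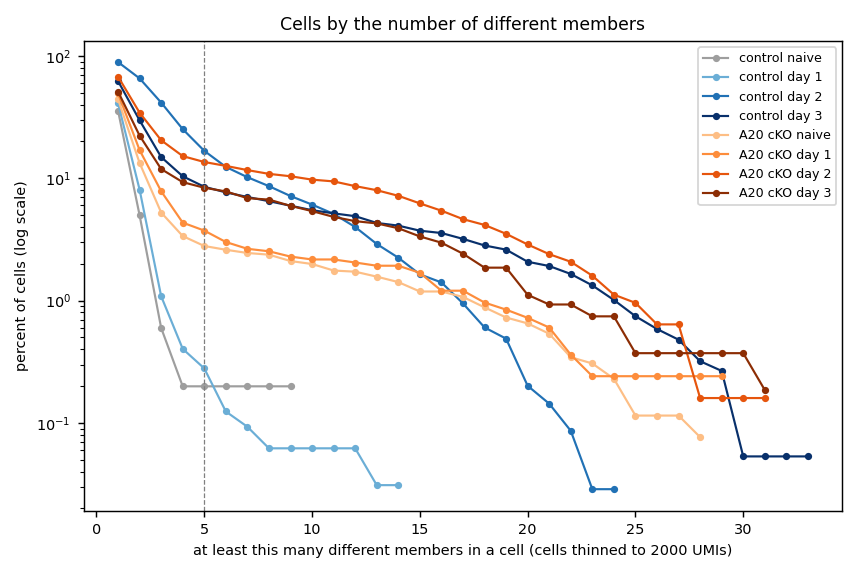
Percent of thinned cells (log scale) with at least the number of different members on the horizontal axis, 1 line per library, with a dashed line at 5 members. Control day 2 lies above A20 cKO day 2 at 5 members, 16.8% against 13.6%, and below it at 10, 6.09% against 9.74%.

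Single members were counted in the same way. Top2a had a UMI in 0.398, 0.620, 23.1 and 8.47% of the thinned cells in control and in 3.45, 4.22, 13.7 and 8.36% of A20 cKO cells. Without thinning the shares were 0.528, 1.66, 36.99 and 12.1% and 4.21, 6.43, 20.5 and 10.8%. Control day 2 thus had the largest share of Top2a cells although A20 cKO day 2 had the higher Top2a level. Birc5 had a UMI in 15.3% of thinned control day 2 cells and 8.47% of A20 cKO day 2 cells, and 29.7% and 13.8% without thinning. Bub3 was found in 18.2% to 26.3% of thinned cells and 26.7% to 44.5% of unthinned cells of every library. Detection of Mki67 in cells with Top2a was counted too. Of thinned cells with Top2a, 25.1% (22.2 to 28.3) had Mki67 in control day 2, against 60.4% (52.3 to 68.03) in control day 3 and 66.3% (55.3 to 76.1) in A20 cKO day 2. In the other 3 linked libraries the share was 51.1% to 57.1%.

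Cells of other types were too few and too shallow to give a background for these shares. In all 8 libraries 21 kept cells had at least 3 markers of another type and at most 2 of 8 microglia markers, and all 21 lay in the linked libraries. Their median depth was 1297 UMIs against 3532 for all kept cells, and 1 of them reached the 2000 UMIs of the thinned cells, so they were counted without thinning. At least 1 member had a UMI in 11 of the 21 (52.4%), of which 7 had Bub3 and 2 had Smc2, and 0 of 21 had 3 or more members. Top2a, Mki67 and Birc5 had a UMI in 0 of 21, which allows a share of up to 14.3% as 3 of 21 cells and 16.1% by the Clopper-Pearson limit. Of the unthinned Top2a shares given above, that of A20 cKO day 2 lay above these limits and those of the other linked libraries lay below. The 21 cells were also shallower than the rest, so no level of background is read from these limits. Control naive, day 1 and day 2 had 0 such cells.

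Members also had UMIs in cells without the rest of the list, and this differed between control day 2 and the linked libraries. For each gene, its level was taken in cells with fewer than 2 of the other 48 members and set against its level in cells with at least 5 members. Over 45 members, leaving out Bub3, Cks1b, Smc2 and Smc4, the level outside was 16.1% of that inside in control day 2 (736 against 4562 CPM). It was 2.66% in control day 3 (261 against 9801 CPM), 1.38% in A20 cKO naive (136 against 9860.2 CPM) and 2.69% in A20 cKO day 2 (268 against 9969 CPM). Control day 2 thus had both a higher level outside and a lower level inside than these 3 libraries, and both enter the percentages. For single genes the percentage in control day 2 ran from 6.71% for Bub1b to 26.4% for Mad2l1, with a median of 14.4%, against a median of 2.76% in control day 3. Top2a outside was at 83.7 CPM in control day 2, 16.5 in control day 3 and 19.4 in A20 cKO day 2. The part of RNA released into the suspension in these levels was not tested.

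**Figure D4:**
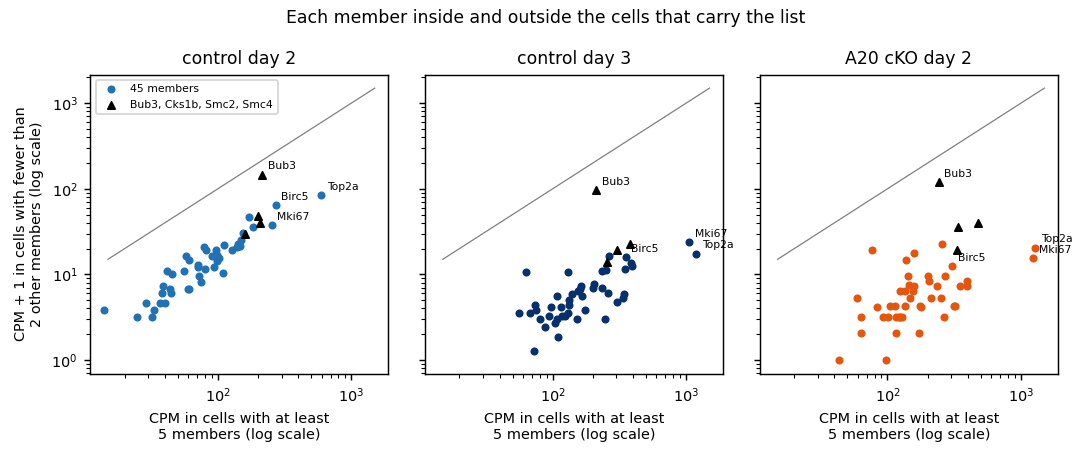
CPM plus 1 of each member in cells with fewer than 2 other members against its CPM in cells with at least 5 members (both log scales), for control day 2, control day 3 and A20 cKO day 2, with the line of equal values and triangles for Bub3, Cks1b, Smc2 and Smc4. Points of control day 2 lie closer to the line, at a median over the other 45 members of 14.4% of the inside level, than those of control day 3 at 2.76% and A20 cKO day 2 at 2.33%.

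A few members had larger parts of their UMIs in cells without the others. Bub3 was at 93.1 to 144 CPM in cells with fewer than 2 other members, which held 11.3% of its UMIs in control day 2, 48.6% in control day 3 and 33.7% in A20 cKO day 2. For Kif2c, chosen here after its values were seen, the same shares were 4.44%, 30.4% and 21.2%, and for Top2a they were 4.32%, 5.19% and 2.26%. These shares also depend on how much of a library such cells hold, so they are not compared between libraries. Bub3 and Kif2c had larger shares than Top2a in control day 3 and A20 cKO day 2. In control day 2 the share of Bub3 was larger and that of Kif2c was close to that of Top2a. In the same order of libraries, the Kif2c level outside was 20.5%, 15.2% and 23.95% of that inside. For Top2a these percentages were 13.99%, 1.38% and 1.51%, so Kif2c lay above Top2a by this measure in each.

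Among cells with at least 5 members, the make-up of the member UMIs differed between control day 2 and the linked libraries. Control day 2 had 583 such cells, control day 3 had 160, and A20 cKO had 73, 31, 85 and 45, while control naive with 1 and control day 1 with 9 were too few to describe. Mki67 took 4.75% (4.45 to 5.06) of member UMIs in control day 2, 9.64% (9.03 to 10.3) in control day 3 and 9.04% to 10.9% in A20 cKO. Top2a had nearly the same part in all 6, between 10.9% and 13.1%. Kif11 took 0.826% (0.703 to 0.965) in control day 2 and 1.59% (1.34 to 1.88) in control day 3, and Cenpe 1.85% (1.66 to 2.05) and 3.61% (3.23 to 4.01). Birc5, Cdk1 and Bub3 had larger shares in control day 2. Birc5 took 5.07% (4.77 to 5.39) in control day 2 and 3.22% (2.86 to 3.61) in control day 3, Cdk1 2.38% (2.17 to 2.61) and 1.28% (1.05 to 1.53), and Bub3 4.02% (3.74 to 4.30) and 1.93% (1.66 to 2.24). In A20 cKO, Birc5 took 2.70% to 3.67%, Cdk1 1.21% to 2.05% and Bub3 2.02% to 3.30%. These are shares of a total that itself differed, 5343 CPM of members in these cells of control day 2 and 10951 CPM in control day 3, and the levels ran differently. Birc5 was at 271 (254 to 289) CPM in these cells of control day 2 and 353 (313 to 396) in control day 3, so it was lower in control day 2 although its share was larger. The intervals of both libraries overlapped for Cdk1, at 127 (116 to 139.7) and 139.9 (115 to 168) CPM, and for Bub3, at 215 (199.7 to 230.3) and 212 (181 to 246) CPM. Mki67 was at 254 (237 to 271) and 1056 (986 to 1129) CPM.

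By role, the chromosomal passenger complex took 11.5% (11.1 to 11.99) of member UMIs in these cells of control day 2 and 7.87% (7.31 to 8.45) in control day 3, and mitotic kinases with CDK1 partners 14.2% (13.7 to 14.7) and 8.88% (8.30 to 9.495). Kinetochore and centromere genes took 11.6% (11.2 to 12.1) and 15.5% (14.7 to 16.2), and chromosome structure genes 26.8% (26.2 to 27.5) and 30.5% (29.5 to 31.4). The 4 A20 cKO libraries lay on the side of control day 3 for the first pair of groups, at 6.92% to 7.82% and 7.44% to 9.61%. As levels in these cells, these groups were lower in control day 2 than in control day 3. The passenger complex was at 616 CPM (591 to 642) in control day 2 and 861 (799 to 928) in control day 3, and mitotic kinases with CDK1 partners were at 759 (730.3 to 788) and 973 (906 to 1043). Kinetochore and centromere genes were at 620.2 CPM (595 to 647) and 1694 (1606 to 1787). All members together were at 10004 to 11361 CPM in these cells of the linked libraries against 5343 CPM in control day 2. With at least 10 members required, 6 of 45 such shares moved by more than their counting interval. Control day 2 and control day 3 share a genotype and differ in make-up, and between them day and library set cannot be told apart.

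**Figure D5:**
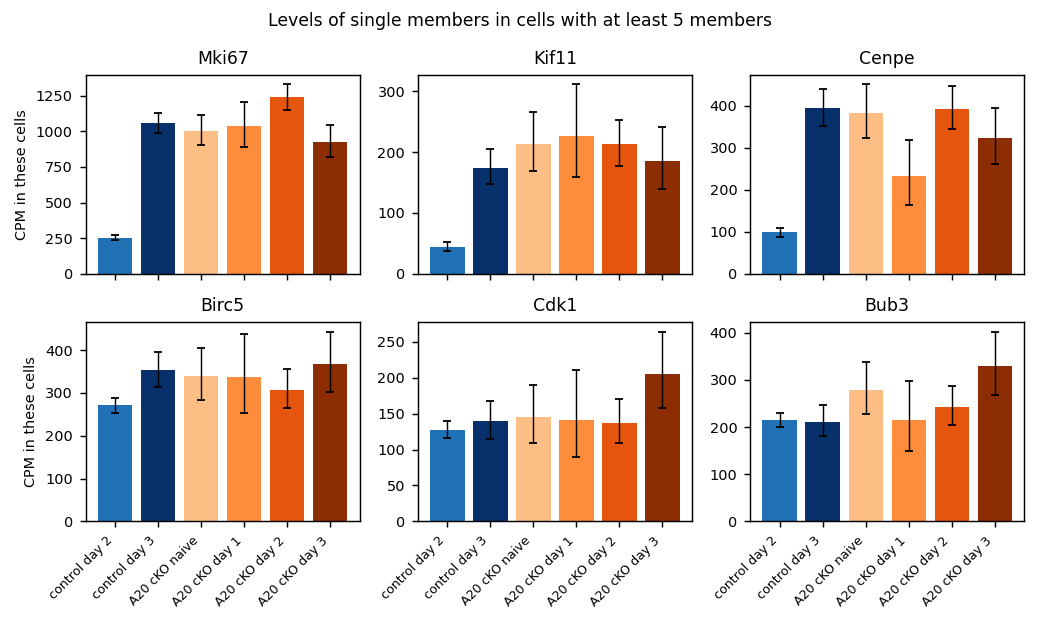
Level (CPM, with exact 95% Poisson intervals) of Mki67, Kif11, Cenpe, Birc5, Cdk1 and Bub3 in cells with at least 5 members, for the 6 libraries with at least 20 such cells. Mki67, Kif11, Cenpe and Birc5 are lower in control day 2 than in control day 3, and the intervals of these libraries overlap for Cdk1 and Bub3.

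Most cells with at least 5 members had UMIs of microglia markers. Shares over all libraries mix them unequally, since 583 of the 987 such cells were from control day 2. Of all 987 such thinned cells, 98.4% had Tmem119, 94.3% Csf1r, 91.2% P2ry12 and 87.5% Cx3cr1, against 98.3%, 96.2%, 94.9% and 91.6% of other cells. Fcrls (71.4% against 72.1%), Siglech (70.2% against 77.1%) and Sall1 (14.7% against 20.4%) were detected in fewer cells of both kinds. Fcrls, a microglial Fc receptor-like gene, was found in 89.4% of such cells against 87.6% of others in control day 2, and in 79.4% against 79.3% in control day 3. In A20 cKO naive Fcrls was found in 28.8% (18.8 to 40.6) against 50.8% (48.8 to 52.7), and in A20 cKO day 1 in 35.5% (19.2 to 54.6) against 51.6% (48.04 to 55.1). It was found in A20 cKO day 2 in 7.06% (2.63 to 14.7) against 22.6% (19.1 to 26.3), and in A20 cKO day 3 in 9 of 45 (9.58% to 34.6%) against 13.4% (10.5 to 16.7). Cx3cr1 was found in 75.3% of such cells of A20 cKO naive against 89.4% of its other cells, on day 1 in 80.6% against 89.99%, on day 2 in 68 of 85 against 79.9%, and on day 3 in 64.4% against 78.3%. Siglech in A20 cKO, from naive to day 3, was found in 71.2% against 77.8%, 74.2% against 70.5%, 45.9% against 62.3% and 46.7% against 62.3%. Sall1 was found in 8.24% against 19.2% on A20 cKO day 2 and in fewer such cells of the other A20 cKO libraries too. Monocyte markers were not counted in these cells.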

How the data were processed

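Microglia of 8 samples were profiled by droplet single-cell RNA-seq. The deposited matrices hold UMI counts, which the authors left without normalization, for every gene in barcodes already called as cells. The submitters' processing notes name Cell Ranger 2.1.1 and mm10, and no source used here states thresholds or annotation release. The kit version differs between labels and methods. Cells with at least 1000 UMIs, 500 genes and at most 10% mitochondrial UMIs were kept (14626 of 14883). For shares of cells, 13691 cells were thinned to 2000 UMIs with a fixed seed. No doublet caller was run, since the methods state that the sort excluded doublets, which leaves those formed in droplets. UMIs were summed per library, 0.5 were added for ratios, and a gene needed 50 UMIs over both libraries to be counted past 2-fold. With 1 library per group no test was made. Intervals are 95% and cover counting error only.

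The 49 members and the lists were chosen with earlier results of these data known. Genes given in every library were the 2 of each of 9 roles with the highest mean CPM, plus Mki67, Top2a, Cdk1, Aurkb, Plk1 and Bub3 (21 in all). For each comparison the highest and lowest ratios were named, and the 3 highest means of each other list. Lists of other mitotic and replication genes are described with their values. Promoters are from RefSeq on GRCm38.p6. Alternatives covered scaling, filters, thinning, thresholds, deep cells and shared barcodes. Scripts (Python 3.11.15, numpy 2.4.6, pandas 2.3.3, scipy 1.17.1, matplotlib 3.10.9) were tested on simulated data. A result on the microglia marker list is not reported here.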

Additional observations from a re-analysis of the deposited data

How the results depend on the processing

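No paired analysis was possible because each group had 1 library and the values come from no test. Adding 1 UMI, using all deposited barcodes and another thinning seed moved no count of members by over 1.5 times and no sum or share beyond its counting interval, although with 1 UMI added Cdca8 was no longer 2-fold higher on control day 1. The cause of the shifts given here was not tested, except that a lower or higher threshold counts more or fewer genes or cells by construction.

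For control day 1 against naive, 3 members (Casc5, Cenpf, Ckap2l) were 2-fold lower with a minimum of 20 UMIs, where 12.2% of all genes were. With no minimum, 13 were lower and 5 higher (Kif2c, Ndc80, Cks1b, Ckap2, Cdca8), where 25.8% and 4.95% of all genes were. At a minimum of 50, 9.48% of all genes were lower. For A20 cKO naive against control naive, 20 were higher with a minimum of 100, where 7.43% of all genes were. For control day 3 against day 2, 11 were lower with median-of-ratios size factors and 9 with the mean of cell CPM, and 1 (Ect2) was higher with stricter cell filters (2000 UMIs, 1000 genes, 5% mitochondrial) or without cells above 3 times the median depth. For A20 cKO day 1 against naive, 1 (Ect2) was higher with stricter filters, and 5 were lower without shared barcodes. The log2 ratio of the sum there reversed without shared barcodes, to −0.21. Shares of all genes are given for other minimums only, so the counts under the other settings have none beside them.

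With size factors the log2 ratio of the sum was 0.36 (control day 1 against naive), −0.50 (control day 3 against day 2), 1.89 and 1.08 (A20 cKO day 2 and day 3 against naive), 0.29 (A20 cKO against control, day 2) and −0.025 (day 3). With the mean of cell CPM it was 2.82 and 2.42 (control day 2 and day 3 against naive), −0.39 (control day 3 against day 2), 1.24 (A20 cKO against control, naive), 0.22 (day 2) and −1.18 (A20 cKO naive against control day 3). With stricter filters it was −0.26 (control day 3 against day 2) and 1.76 (A20 cKO day 2 against naive). Without Bub3, Cks1b, Smc2 and Smc4 it was 3.91 and 3.66 (control day 2 and day 3 against naive), −0.25 (control day 3 against day 2), 2.37 (naive genotypes), 1.99 and 1.10 (A20 cKO day 2 and day 3 against naive), 0.44 (day 2 genotypes) and −1.29 (A20 cKO naive against control day 3).

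The share of cells with at least 5 members, in order of time, when thinned to 1000 UMIs was 0%, 0.0301%, 7.45% and 5.15% for control cells and 2.02%, 2.14%, 10.8% and 4.84% for A20 cKO cells. Without thinning it was 1.02%, 42.1% and 12.1% in control from day 1 on and 3.66%, 5.42%, 21.3% and 13.1% in A20 cKO. With 3 members required it was 1.09%, 41.6% and 14.9% in control from day 1 on and 5.25%, 7.83%, 20.4% and 11.9% in A20 cKO. With 10 required it was 0%, 0.0620%, 6.09% and 5.48% for control cells and 1.99%, 2.17%, 9.74% and 5.39% for A20 cKO cells. Without shared barcodes it was 0.126% on control day 1 and 2.44% on A20 cKO day 1, and without Bub3, Cks1b, Smc2 and Smc4 it was 0.124% on control day 1 and 12.9% on day 2. Shares of member UMIs moved in 6 of 45 cases with 10 members required, in 0 of 45 without shared barcodes and in 54 of 54 without Mki67 and Top2a, where the denominator differs.

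Control naive, with 1620481 kept UMIs, limits every ratio against it, since 35 members were under 50 UMIs there and on day 1 together.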

Other observations

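In cells with at least 5 members, the 50 replication genes were at 3723 CPM (3659.9 to 3787) in control day 2 and 3564 (3436 to 3697) in control day 3, and at 5050.2, 4831, 4031 and 4307 CPM in A20 cKO from naive to day 3. Members in the same cells were at 5343 CPM in control day 2 and 10951 in control day 3. In cells that had no member UMI after thinning, replication genes were at 601, 957, 1615 and 780.1 CPM across the control time points and 613, 955, 749 and 640.4 CPM across those of A20 cKO, from all UMIs of these cells. Among these cells control day 2 stood highest and control day 1 and A20 cKO day 1 were each above the naive library of their genotype. Cells with a shared barcode were not left out of these levels.

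The 88 other mitotic genes were at 4174 CPM in control day 2 cells with at least 5 members and 6300.0 to 7242 CPM in those of the 5 linked libraries. In cells without a member they were at 1246 CPM in control day 2 and 681 to 890.5 CPM in the other 7 libraries.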
